A study of Mus musculus with 3 samples.

Results

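CD8+ T cells from the spleens of transplanted mice given cyclosporine (CSA) at 50 mg/kg were compared with CD8+ T cells from mice given 5 mg/kg, to describe what the higher dose adds to the lower one. All CD8+ cells of the 6 pools given CSA were used, 6194 of the 21204 cells deposited, with 3532 at 50 mg/kg and 2662 at 5 mg/kg. The B6D2F1 recipients (H-2b/d) were irradiated and transplanted with bone marrow and T cells from B6 donors (H-2b), together with a small number of TEa cells, CD4+ T cells with a transgenic receptor for a recipient antigen. CSA was injected daily from day 0 to day 6 and splenic donor T cells were sorted on day 7, from 6 mice a dose. Each pool combined the spleens of 2 mice and was tagged with its own hashtag antibody, which gave 3 pools a dose. The 3 pools of a dose were sequenced in 1 droplet capture, so dose and capture cannot be told apart. Saline-treated pools, in a capture of their own, entered none of the tests reported here, apart from 1 alternative fit named with the processing. Their values are given beside those of the 2 doses for clonality and for some of the genes and clusters. The replicates are pools, so p-values measure the spread between pools that shared a capture.

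CSA binds cyclophilin in the cytoplasm, and the complex blocks calcineurin, the calcium-dependent phosphatase that frees NFAT transcription factors to enter the nucleus after T cell receptor (TCR) engagement. NFAT acts with AP-1 on cytokine genes such as that of IL-2, and under prolonged stimulation it drives the programme of inhibitory receptors and TOX that is called exhaustion. In graft-versus-host disease (GVHD), donor CD8+ T cells that meet recipient MHC class I divide and become cytotoxic effectors, and CSA is given to prevent this.

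The 6 pools held 692 to 1291 CD8+ cells and between 4392100 and 11454636 unique molecular identifiers (UMIs). Median UMIs per cell were 5381.5, 6106.5 and 6612.5 at 5 mg/kg and 6656, 6761.5 and 8065 at 50 mg/kg, so the doses did not overlap in depth per cell (exact permutation test, two-sided, p = 0.1, the smallest that 3 pools against 3 can give). The median mitochondrial share was alike, 1.59% to 1.62% against 1.56% to 1.66%. Hashtags were less clean in pools 2 and 3: another hashtag of the capture was the strongest in 0%, 5.37% and 21.5% of cells of the 3 pools at 5 mg/kg and in 0%, 9.88% and 13.3% at 50 mg/kg. To what extent pools of a dose share mice for this reason was not tested. The captures shared 9 CD8+ barcode sequences, 0.145% of the cells. Every cluster of these cells carried *Cd3e* and *Cd8b1*. No cell held a *Cd4* UMI, in the saline pools either, although *Cd40lg* and *Foxp3* were seen. Whether the deposited division into CD8+ and CD4+ cells used *Cd4* counts is not known, so this does not measure purity. The CD8 surface tag did not separate the doses, with medians of 119.5, 124 and 139 UMIs against 116, 117 and 125 (exact permutation test, two-sided, p = 0.3). The CD4 tag (11, 12 and 11 against 6, 6 and 5 UMIs) and the CD45.1 tag (9 in each pool against 2 in each) were lower in the capture at 50 mg/kg, and their part in the results was not tested.

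Pool totals are given as CPM, counts per 1000000 after TMM scaling, which sets the pools to a common level for most genes. The TMM factors were 1.37 to 1.38 for saline pools, 1.03 to 1.04 at 5 mg/kg and 0.96 to 0.97 at 50 mg/kg. A factor above 1 lowers the CPM of a pool, so the saline CPM depend on this scaling. Of 10529 genes with enough counts, 4093 (38.9%) differed between the doses at an adjusted p under 0.05 (Benjamini-Hochberg, by the quasi-likelihood test of edgeR, as for every adjusted p given here), 2002 higher (19%) and 2091 lower (19.9%) at 50 mg/kg. The median log2 change over all genes tested was -0.01. The pools of the doses did not overlap for 49.5% of the genes tested. Counts for gene lists below cover members with enough counts to test, since a gene absent from most pools could not enter the fit. Each such count over all cells has the same background, 19% of genes higher and 19.9% lower, and no list was tested as a set. A change of at least 1 on the log2 scale was reached by 230 of the genes that rose and 397 of those that fell. With scaling by library size alone the calls were 1189 higher and 3032 lower, so that 28.2% rather than 48.9% of calls were rises, and the median of all genes moved to -0.11. Changes of that size depend on the scaling. With only cells that carried 1 dominant hashtag, 3539 genes were called and 84.2% of the main calls remained, all in the same direction.

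**Figure D1:**
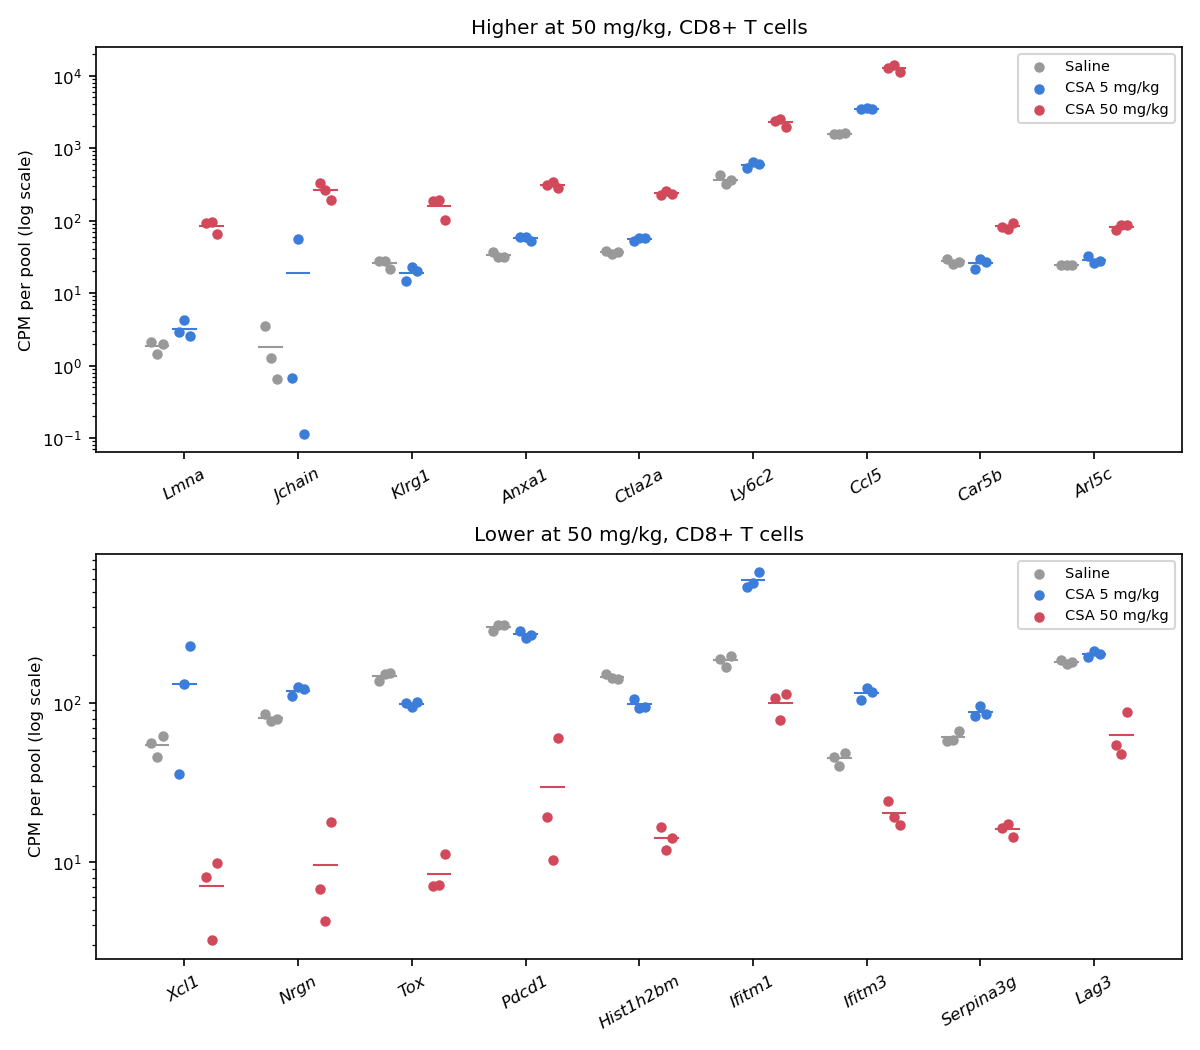
CPM per pool on a log axis for genes with large changes between the doses in CD8+ T cells. Each point is 1 pool (3 per group, saline in grey for comparison) and bars are group means. The pools of the 2 doses do not overlap for any gene drawn, which was a condition of choosing all but *Lmna* and *Lag3*. Over all genes tested, 49.5% did not overlap. *Lmna* sits at 2.52 to 4.22 CPM at 5 mg/kg and at 66.0 to 96.6 CPM at 50 mg/kg, whereas *Tox* sits at 95.2 to 102 CPM and at 7.07 to 11.2 CPM.

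The genes of the drug's own target pathway moved in both directions. Of 16 calcineurin and NFAT genes, 5 rose, 5 fell and 6 did not pass (background 19% and 19.9% of genes), with a median log2 change of -0.04. *Ppp3ca*, the catalytic calcineurin subunit, had 68.8, 60.6 and 67.1 CPM at 5 mg/kg and 91.0, 101 and 90.7 CPM at 50 mg/kg, a rise of 0.53 on the log2 scale (standard error 0.07, adjusted p = 5.7e-05). *Nfatc1*, the NFAT gene that induces its own transcription, had 126, 123 and 135 CPM and then 78.3, 88.3 and 89.3 CPM, a fall of 0.59 on the log2 scale (adjusted p = 1.3e-05). *Rcan1*, a feedback inhibitor of calcineurin that is often read as a reporter of its activity, was low in both groups, at 2.21, 4.38 and 4.24 CPM against 3.10, 2.38 and 4.19 CPM (log2 change -0.19, adjusted p = 0.62).

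The transcription factors linked to exhaustion fell together. Of 13 tested, 9 fell and 2 rose (background 19.9% and 19% of genes), with a median of -0.59. *Tox*, which encodes the HMG-box factor that establishes the exhausted state, had 138, 153 and 154 CPM in saline pools, 100.4, 95.2 and 102 CPM at 5 mg/kg and 7.07, 7.15 and 11.2 CPM at 50 mg/kg. Pools at 5 mg/kg lay below saline, and every pool at 50 mg/kg lay far below both. The log2 change was -3.51 (standard error 0.12, adjusted p = 8.4e-11). Its paralogue *Tox2* fell by 3.42, from 11.5, 10.2 and 8.47 CPM to 0.620, 0.834 and 1.18 CPM. *Ikzf2*, which encodes Helios, fell by 2.48 on the log2 scale (adjusted p = 1.8e-07). The 2 that rose were *Nr4a1*, an orphan receptor induced within hours of TCR signalling, at 11.1, 13.6 and 19.3 CPM and then 55.7, 54.4 and 29.2 CPM (log2 change 1.57, adjusted p = 1.7e-04), and *Eomes*, a T-box factor of memory and exhausted cells, at 27.4, 28.4 and 25.1 CPM and then 47.8, 49.7 and 49.1 CPM (log2 change 0.87, adjusted p = 7.3e-07). *Irf4* did not pass (-0.24, adjusted p = 0.18).

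Of 14 inhibitory receptors tested, 12 fell and 1 rose, with a median log2 change of -1.16. *Pdcd1*, which encodes PD-1, lies on chromosome 1 at 94038305 to 94052553 (mm10). It had 283, 309 and 310.3 CPM in saline pools, 286, 258 and 266 CPM at 5 mg/kg and 19.1, 10.4 and 60.1 CPM at 50 mg/kg. Pool 3 at 50 mg/kg was the highest of its group and still below every pool at 5 mg/kg. *Pdcd1* fell by 3.11 on the log2 scale (standard error 0.36, adjusted p = 1.6e-05), and by 4.20 without that pool. *Lag3*, an MHC class II-binding receptor, went from 196, 213 and 205 CPM to 54.2, 48.1 and 88.1 CPM, with the same pool highest, a fall of 1.67 (adjusted p = 2.1e-06). *Tigit*, which competes with CD226 for the ligand CD155, fell by 1.24, from 249.6, 215 and 237 CPM to 85.5, 86.1 and 123 CPM. The immunoglobulin-like receptors *Lilr4b* and *Lilrb4a* fell by 3.19 and 3.54, but they are close copies, so reads could be split between them. *Havcr2*, which encodes TIM-3, fell by 0.35 (adjusted p = 0.0045), and outside the cycling clusters its change was 0.12. *Ctla4* did not pass (-0.29, adjusted p = 0.068), although it did with library size scaling, with no filter on low counts and without pool 3 at 50 mg/kg. *Vsir*, which encodes VISTA, was the receptor that rose, by 0.26 (adjusted p = 0.0051). That call was lost with library size scaling.

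The promoter of *Pdcd1* is printed because the gene is a classical NFAT target that lost most of its UMIs. It spans chr1:94052504-94052803 on the minus strand, 250 bases before to 50 after the RefSeq start (GRCm38.p6), written 5′ to 3′ with the 2 matches to the NFAT core GGAAA in capitals, here read on the opposite strand as TTTCC.
Pdcd1: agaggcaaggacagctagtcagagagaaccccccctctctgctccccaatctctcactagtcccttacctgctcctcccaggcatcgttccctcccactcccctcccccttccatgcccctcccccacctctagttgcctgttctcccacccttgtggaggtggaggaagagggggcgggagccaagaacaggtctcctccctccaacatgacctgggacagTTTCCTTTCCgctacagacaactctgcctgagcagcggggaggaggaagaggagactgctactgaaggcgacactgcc
Searched on both strands, GGAAA was in 20151 of 32851 promoters of this length (61.3%), and the AP-1 motif TGANTCA in 2565 (7.81%). Of the 8 largest falls given above a mean of 50 CPM, 6 had a promoter in the table and 4 of these held GGAAA. Of the 8 largest rises, 5 had one and 3 held it.

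**Figure D2:**
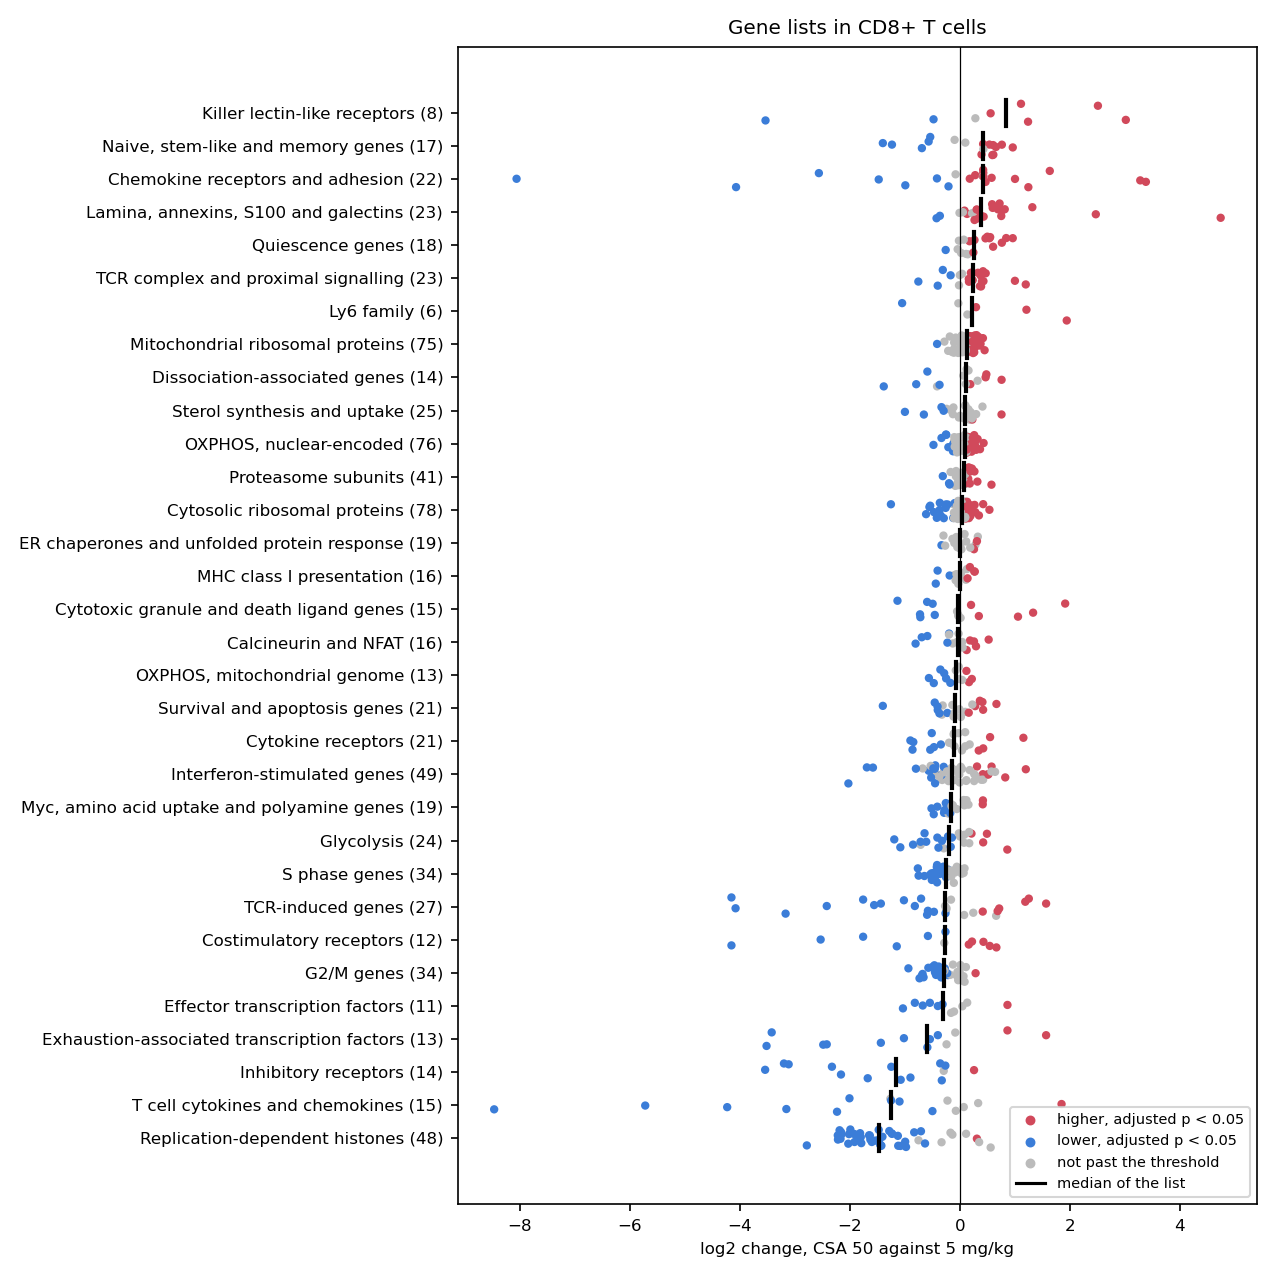
Log2 change at 50 against 5 mg/kg of every tested member of 32 gene lists in CD8+ T cells, 1 point per gene. Red and blue points passed the test upwards and downwards, grey points did not, black ticks are list medians and the tested number stands in brackets. The lists are ordered by their median, from killer lectin-like receptors at 0.84 down to replication-dependent histones at -1.47.

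Genes that TCR signals induce divided. Of 27 tested, 14 fell and 6 rose, with a median of -0.27. Costimulatory receptors of the TNF receptor family fell furthest. *Tnfrsf4* (OX40) had 38.5, 28.5 and 30.3 CPM at 5 mg/kg and 1.98, 1.79 and 1.64 CPM at 50 mg/kg, a fall of 4.15 on the log2 scale (standard error 0.17, adjusted p = 6.6e-10). *Tnfrsf9* (4-1BB) fell by 1.76, from 119.8, 135 and 137 CPM to 41.7, 36.6 and 38.1 CPM. Neither gene overlapped between the doses. *Egr2*, a brake on TCR signalling that NFAT induces, fell by 1.56 and *Bhlhe40*, a factor needed for effector cytokines, by 0.82 (adjusted p = 0.0033 and 9.8e-06). The genes of this list that rose included the phosphatases *Dusp2* and *Dusp4*, which switch off MAP kinases. *Dusp2* had 128, 125 and 126 CPM and then 295, 297 and 312 CPM, a rise of 1.26 (standard error 0.05, adjusted p = 2.0e-10), and *Dusp4* rose by 1.19 (adjusted p = 1.0e-04). *Myc* rose by 0.42 (adjusted p = 0.015), a call lost under 7 alternatives, among them library size scaling and leaving out pool 2 at 5 mg/kg or pool 1 or 2 at 50 mg/kg.

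Among the 12 costimulatory receptors tested, 6 fell and 5 rose. *Cd226*, the activating partner of TIGIT whose level names several of the deposited clusters, had 256, 241 and 245 CPM in saline pools, 133, 140.1 and 157 CPM at 5 mg/kg and 66.4, 69.9 and 59.7 CPM at 50 mg/kg. The 3 groups did not overlap, and the step between the doses was -1.14 (standard error 0.08, adjusted p = 8.7e-08). *Slamf1* fell by 2.53 and *Icos* by 0.58 (adjusted p = 1.7e-09 and 2.3e-04), while *Cd28* rose by 0.43, *Cd48* by 0.55 and *Slamf7* by 0.67 (adjusted p = 1.7e-04, 7.8e-07 and 1.0e-05).

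Of 15 cytokine and chemokine genes tested, 9 fell and 1 rose, with a median of -1.25. *Ccl1*, a chemokine of activated T cells, had 17.2, 52.4 and 90.2 CPM at 5 mg/kg, with the 3 pools far apart, and 0.124, 0 and 0.273 CPM at 50 mg/kg. The log2 change of -8.46 (standard error 0.83, adjusted p = 3.8e-06) rests on almost no UMIs at the higher dose. *Xcl1*, the ligand of XCR1 on cross-presenting dendritic cells, had 56.0, 46.0 and 62.0 CPM in saline pools, 35.8, 131 and 228 CPM at 5 mg/kg and 8.06, 3.22 and 9.93 CPM at 50 mg/kg. It fell by 4.23 (standard error 0.52, adjusted p = 3.0e-05), and by 3.56 without pool 3 at 5 mg/kg, the highest of its group. *Il21* had 2.21, 1.95 and 3.66 CPM and then 0, 0 and 0.0911 CPM. *Ifng*, the interferon of cytotoxic cells, had 59.7, 90.6 and 126 CPM and 47.5, 41.2 and 43.7 CPM, which did not overlap, a fall of 1.09 (standard error 0.18, adjusted p = 3.4e-04). *Ccl3* and *Ccl4*, inflammatory chemokines, did not pass, with changes of 0.07 and 0.34 (adjusted p = 0.8 and 0.27). *Ccl4* was called without pool 3 at 5 mg/kg and with no filter on low counts.

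The exception in that list was *Ccl5*, a chemokine that memory and effector CD8+ cells keep as stored message. *Ccl5* had 1587, 1556 and 1625 CPM in saline pools, 3477, 3523 and 3514 CPM at 5 mg/kg and 12857, 13836 and 11239 CPM at 50 mg/kg. In CPM, every pool of a group lay above every pool of the one before. The share of cells with a *Ccl5* UMI, given below, was instead higher with saline than at 5 mg/kg. The pools at 5 mg/kg lay close together. The log2 change between the doses was 1.85 (standard error 0.06, adjusted p = 6.2e-11).

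Members of the Ly6 and killer lectin-like receptor families moved in both directions. *Ly6c2*, which encodes a GPI-anchored protein of memory and inflammatory CD8+ cells, had 425, 315 and 366 CPM in saline pools, 525, 645 and 599.6 CPM at 5 mg/kg and 2375, 2513 and 1939.8 CPM at 50 mg/kg, a rise of 1.95 between the doses (standard error 0.09, adjusted p = 1.3e-09). Reads of *Ly6c1* and *Ly6c2*, near-identical neighbours on chromosome 15, may be shared between them. *Ly6c1* had 2.85, 2.03 and 2.64 CPM at 50 mg/kg. Of the 6 Ly6 genes tested, 3 rose and 1 fell. *Klrg1*, a cadherin-binding inhibitory receptor of short-lived effectors, had 14.8, 22.5 and 20.3 CPM and then 184, 194 and 101 CPM, a rise of 3.02 (standard error 0.22, adjusted p = 2.6e-07). Pool 3 at 50 mg/kg was the lowest of its group, and still far above every pool at 5 mg/kg. Of 8 killer lectin-like receptors tested, 5 rose and 2 fell, with a median of 0.84. *Klrd1*, which encodes CD94, rose by 1.24, from 253, 227 and 233 CPM to 555, 581 and 548 CPM (standard error 0.05, adjusted p = 2.9e-10), and *Klra3* by 2.51 from 1.11, 1.95 and 1.72 CPM. *Klrb1c*, which encodes NK1.1, fell by 3.53, from 6.19, 10.7 and 9.39 CPM to 0.248, 0.596 and 1.28 CPM.

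Cytotoxic granule genes did not share a direction, with 5 of 15 higher, 6 lower and a median of -0.03. *Gzmb*, the main granzyme of these cells, had 1812, 2122 and 2339.5 CPM at 5 mg/kg and 2414, 2037 and 1899 CPM at 50 mg/kg, overlapping throughout (log2 change 0.02, standard error 0.09, adjusted p = 0.91). Outside the cycling clusters *Gzmb* rose by 0.35 (adjusted p = 0.014). Within clusters taken 1 at a time, given below, it was called higher in 1 of 7 and lower in 3. *Prf1*, the pore-forming perforin, fell by 0.72 from 186, 201 and 209 CPM to 119, 124 and 119.7 CPM (standard error 0.05, adjusted p = 3.1e-07), and *Gzma* by 0.49 (adjusted p = 6.6e-05). *Serpinb9*, the inhibitor that protects killer cells from their own granzyme B, fell by 1.13, from 219.5, 224 and 231 CPM to 114, 93.9 and 101 CPM. The low granzymes *Gzmc* and *Gzmm* rose by 1.92 and 1.33 (adjusted p = 8.8e-06 and 3.0e-05). *Tbx21*, the T-box factor that drives the cytotoxic programme, had 146, 145 and 147 CPM and then 143, 145 and 121 CPM (log2 change -0.10, adjusted p = 0.24). Of the 11 effector transcription factors tested, 6 fell and 1 rose; among the falls, *Zeb2*, a partner of T-bet, fell by 1.03 (adjusted p = 4.6e-04).

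The largest rise among the named genes was that of *Lmna*, which encodes the nuclear lamins A and C and is normally scarce in resting lymphocytes. *Lmna* had 2.11, 1.45 and 1.99 CPM in saline pools, 2.87, 4.22 and 2.52 CPM at 5 mg/kg and 93.0, 96.6 and 66.0 CPM at 50 mg/kg, that is 61 UMIs in all at the lower dose and 2285 at the higher. The log2 change was 4.74 (standard error 0.20, adjusted p = 9.9e-10). Its promoter is printed as that of the gene with the strongest gain, at chr3:88503303-88503602 on the minus strand (GRCm38.p6, RefSeq), the first of the 2 starts listed for the gene. The capitals mark its 1 match to the AP-1 motif TGANTCA, and it holds no GGAAA on either strand. The other start, at chr3:88493263-88493562, has the opposite pattern, with 1 match to GGAAA and 0 to TGANTCA.
Lmna: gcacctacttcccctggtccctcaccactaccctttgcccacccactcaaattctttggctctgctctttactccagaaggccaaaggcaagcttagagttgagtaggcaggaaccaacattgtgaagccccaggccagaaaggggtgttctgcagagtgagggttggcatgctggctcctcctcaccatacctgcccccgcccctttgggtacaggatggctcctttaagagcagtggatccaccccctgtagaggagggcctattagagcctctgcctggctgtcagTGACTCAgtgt
*Lmnb1*, the B-type lamin of dividing cells, fell by 0.42 (adjusted p = 8.6e-05). In the list of lamina, annexin, S100 and galectin genes, 18 of 23 rose and 2 fell, with a median of 0.38. *Anxa1*, a calcium-dependent membrane-binding protein, had 58.8, 59.7 and 52.3 CPM and then 314, 345 and 285 CPM, a rise of 2.47 (standard error 0.08, adjusted p = 6.2e-11). *S100a4*, an S100 protein of motile memory cells, rose by 1.32, from 289, 317 and 298 CPM to 712, 714 and 831 CPM (adjusted p = 1.7e-09). Among the 8 largest rises above a mean of 50 CPM, which *Lmna* did not reach, were *Ctla2a*, a cathepsin inhibitor of activated T cells, at 52.4, 58.2 and 57.2 CPM and then 227, 259 and 229.9 CPM (log2 change 2.09), the mitochondrial carbonic anhydrase *Car5b* (1.65) and the small GTPase *Arl5c* (1.54).

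Homing genes moved in opposite directions. Of 22 chemokine receptor and adhesion genes tested, 13 rose and 7 fell, with a median of 0.42. *Cxcr5*, which guides cells to B cell follicles, had 4.20, 4.86 and 3.78 CPM at 5 mg/kg and 0 UMIs in all 3 pools at 50 mg/kg, at least 38.6-fold lower, with a floor of 3 UMIs summed over the 3 pools. *Ccr6* fell by 4.07, and *Cx3cr1*, the fractalkine receptor of terminal effectors, had 24.3, 23.2 and 25.1 CPM and then 4.22, 5.00 and 3.28 CPM, a fall of 2.56 (standard error 0.15, adjusted p = 2.2e-08). *Itgae*, the CD103 chain that binds E-cadherin on epithelia, rose by 3.38, from 1.11, 0.486 and 1.49 CPM to 13.4, 11.3 and 9.75 CPM (adjusted p = 8.1e-07). *Ccr10*, a receptor for skin and mucosal chemokines, rose by 3.28, from 2.87, 2.43 and 2.40 CPM to 20.7, 23.6 and 29.1 CPM (adjusted p = 2.7e-08). *Cxcr3*, a receptor for interferon-induced chemokines, rose by 0.47 and *Cd44* by 0.42 (adjusted p = 4.9e-06 and 3.3e-04). *Cxcr6* rose by 0.18 (adjusted p = 0.016), a call lost with library size scaling, with 1 dominant hashtag, and without CSA 5 mg/kg pool 1 or CSA 50 mg/kg pool 2.

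Genes of naive, stem-like and memory cells moved in both directions. Of 17 tested, 9 rose and 5 fell, with a median of 0.43. *Foxp1*, which holds T cells in quiescence, had 63.0, 69.7 and 55.8 CPM and then 118, 128 and 119.7 CPM, a rise of 0.96 (standard error 0.08, adjusted p = 5.2e-07). *Foxo1* rose by 0.77 and its target *Klf2*, which keeps naive cells in circulation, by 0.61, from 640.0, 610.1 and 619 CPM to 964, 934 and 947 CPM (adjusted p = 2.2e-06 and 3.8e-08). *S1pr1*, the lymphoid exit receptor, rose by 0.43 (adjusted p = 2.2e-04). *Tcf7*, the factor of self-renewing T cells, had 79.1, 60.1 and 50.1 CPM and then 22.5, 26.0 and 29.7 CPM, a fall of 1.23 (standard error 0.14, adjusted p = 1.6e-05). *Bcl2*, the survival gene, fell by 1.40, *Slamf6* by 0.69, *Id3* by 0.57 and *Il7r* by 0.54 (adjusted p = 4.4e-07, 2.2e-05, 3.0e-04 and 0.0027). Within the deposited clusters described below, *Bcl2* and *Il7r* were each called lower in 6 of 7, but *Slamf6* in only 1 of 7. *Id3* was called lower in 0 of 6 clusters and higher in 1. *Ccr7* did not pass (0.10, adjusted p = 0.65). Of 18 quiescence genes, which partly repeat this list, 11 rose and 1 fell, with a median of 0.26. Of 21 survival and apoptosis genes, 6 rose and 6 fell (28.6% each, background 19% and 19.9% of genes).

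The CD8 co-receptor and the proximal TCR machinery rose. Of 23 genes, 16 rose and 4 fell, with a median of 0.24. *Cd8b1* had 938, 992 and 924 CPM in saline pools, 1418, 1375 and 1400.4 CPM at 5 mg/kg and 2745, 2949 and 2714 CPM at 50 mg/kg, a rise of 1.00 (standard error 0.04, adjusted p = 2.9e-10), while *Cd8a* rose by 0.47 (adjusted p = 2.6e-05). The CD8 surface tag, given above, overlapped between the doses. *Cd6*, a scavenger receptor that tunes TCR signals, rose by 1.20, from 48.0, 58.0 and 55.6 CPM to 124, 131 and 119 CPM. *Fyn*, a Src family kinase, fell by 0.75 and *Themis* by 0.40 (adjusted p = 5.1e-07 and 3.0e-04). Among 21 cytokine receptors, 7 fell and 4 rose (background 19.9% and 19% of genes). *Il18r1* fell by 0.90 and *Il2ra*, the high-affinity IL-2 receptor chain that NFAT induces, by 0.47 (adjusted p = 2.2e-05 and 0.004). The call of *Il2ra* was lost outside the cycling clusters (-0.24) and in cells of 4000 to 8000 UMIs (-0.28). *Il2rb* did not pass (-0.10, adjusted p = 0.082).

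Replication-dependent histones, whose messages normally lack a poly(A) tail and are made in S phase, fell almost as a class. Of 48 tested, 40 fell and 1 rose, with a median of -1.47. *Hist1h2bm* had 152, 143 and 142 CPM in saline pools, 106, 93.7 and 94.7 CPM at 5 mg/kg and 16.6, 11.9 and 14.2 CPM at 50 mg/kg, a fall of 2.78 (standard error 0.10, adjusted p = 1.0e-10). *Hist1h2bb* fell by 2.22. The one that rose, *Hist3h2ba*, changed by 0.31 (adjusted p = 0.033), but the call was lost under 10 alternatives, among them DESeq2, library size scaling, the pool number block and 4 of the 6 fits without 1 pool. Its direction turned outside the cycling clusters (-0.03) and in cells of 4000 to 8000 UMIs (-0.15). Cell cycle genes fell by less. Of 34 S phase genes, 19 fell and 0 rose, with a median of -0.25, and of 34 G2/M genes 21 fell and 1 rose, with a median of -0.29. Outside the cycling clusters the falls were larger, in 25 of 34 S phase genes with a median of -0.67 and in 29 of 33 G2/M genes with a median of -1.33. *Mki67*, the proliferation marker, had 429, 428 and 515 CPM and then 239.7, 213 and 266 CPM, a fall of 0.93 (standard error 0.08, adjusted p = 1.1e-06). *Pclaf*, a PCNA-binding S phase gene, did not pass (-0.13, adjusted p = 0.12) but was called lower under 4 alternatives, with library size scaling (-0.23), outside the cycling clusters (-1.33), in cells of 4000 to 8000 UMIs (-0.80) and without pool 3 at 50 mg/kg (-0.17).

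Metabolic lists moved by small amounts, and for several of them the direction of the median depended on the scaling. Of 24 glycolysis genes, 12 fell and 4 rose, with a median of -0.19. *Hif1a*, the hypoxia factor that drives glycolysis in activated T cells, had 142, 144 and 152 CPM and then 70.1, 64.7 and 58.3 CPM, a fall of 1.19 (standard error 0.07, adjusted p = 2.8e-08). *Hk2* fell by 1.08, but *Slc2a1*, the glucose transporter GLUT1, rose by 0.49 and *Gapdh* by 0.43 (adjusted p = 0.0014, 1.2e-04 and 2.5e-06). *Ldha* fell by 0.14 (adjusted p = 0.025), a call lost under 6 alternatives, among them leaving out pool 2 or 3 at 5 mg/kg or pool 2 at 50 mg/kg. Of 76 nuclear-encoded genes of oxidative phosphorylation (OXPHOS), 31 rose and 7 fell with a median of 0.10, and with library size scaling 14 rose and 20 fell with a median of -0.002. *Sdhd*, a succinate dehydrogenase subunit, rose by 0.43 and *Ndufb9*, of complex I, by 0.37. *Atp5k*, *Cox7c* and *Atp5e* fell by 0.48, 0.25 and 0.21, and *Cox6c* did not pass (-0.03, adjusted p = 0.59). Of the 13 mitochondrially encoded genes, 3 rose and 6 fell. Mitochondrial ribosomal proteins rose in 34 of 75 and fell in 1, but in 12 and 9 with library size scaling, and cytosolic ribosomal proteins rose in 30 of 78 and fell in 15, but in 12 and 30. Proteasome subunits rose in 15 of 41 and fell in 3, but in 3 and 9. Of 19 Myc-linked and amino acid uptake genes 2 rose and 8 fell, and of 25 sterol genes 2 rose and 4 fell.

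Interferon-stimulated genes rose in 7 and fell in 13 of 49 (14.3% and 26.5%, against 19% and 19.9% of all genes tested), with a median of -0.15. The direct antiviral genes *Ifitm1* and *Ifitm3* are not in that list but were among the 8 largest falls. *Ifitm1* had 189, 169.8 and 198 CPM in saline pools, 537, 573 and 667 CPM at 5 mg/kg and 107, 78.4 and 114 CPM at 50 mg/kg. In CPM the lower dose thus lay above saline and the higher dose below it. The step between the doses was -2.56 (standard error 0.11, adjusted p = 1.0e-09). In cells thinned to 2000 UMIs, *Ifitm1* was seen in 22.7% to 24.9% with saline and 24.2% to 28.7% at 5 mg/kg, which overlapped. At 50 mg/kg it was seen in 3.57% to 4.90%. *Ifitm3* had 45.7, 40.3 and 48.9 CPM, 105, 125 and 118 CPM and 24.3, 19.2 and 17.2 CPM in the same order, a step of -2.53. *Ifih1*, the RNA sensor MDA5, fell by 2.02, whereas *Isg15* did not pass (-0.32, adjusted p = 0.22). Of 16 MHC class I presentation genes, 4 rose and 3 fell, close to the background of all genes, and of 19 endoplasmic reticulum stress genes 3 rose and 1 fell. Both counts turned with library size scaling, to 2 and 6 and to 0 and 4. The remaining 2 of the 8 largest falls were *Nrgn*, which encodes the calmodulin-binding protein neurogranin, at 111, 126 and 122 CPM and then 6.82, 4.29 and 17.9 CPM (log2 change -3.55, and -4.43 without pool 3 at 50 mg/kg), and *Serpina3g*, a protease inhibitor of activated T cells, at 83.1, 95.3 and 85.5 CPM and then 16.4, 17.4 and 14.4 CPM (-2.46).

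The deposited annotation divides the CD8+ cells into 9 clusters, which in the study's naming are 1 cycling *Cd226*lo, 2 cycling, 3 cycling *Cd226*hi, 4 *Tcf7*hi, 5 *Fcer1g*hi, 6 naive, 7 exhausted, 8 *Cd226*hi effector and 9 *Cd226*lo effector cells. Among their markers, *Tcf7* was highest in cluster 4 at 272 CPM, *Ccr7* in cluster 6 at 298 CPM, *Mki67* in cluster 3 at 3340 CPM and *Fcer1g* in cluster 5 at 527 CPM. Cluster 7 had the highest *Ccl4*, at 6694 CPM, and *Ifng*, at 577 CPM. Since these counts also defined the clusters, a comparison within them is a description of where a difference lies rather than a further test of it. The 7 clusters with at least 10 cells in each pool were fitted, and 131 of 3500 genes (3.74%) were called in cluster 6, 286 (6.63%) in cluster 5, 420 (8.6%) in cluster 4, 1125 (14.6%) in cluster 9, 1574 (19.8%) in cluster 2, 1806 (19.8%) in cluster 1 and 1208 (22.1%) in cluster 8. Clusters 3 and 7 had too few cells.

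Most of the large changes were present across clusters. *Tox* fell in each of the 6 clusters in which it could be tested, with log2 changes of -4.42 to -2.78, and *Pdcd1* in the same number, with -5.33 to -2.78. *Lag3* fell in 6 of 6 clusters, with -2.45 to -1.34. *Klrg1* rose in 6 of 6, by 2.65 to 4.09. *Ccl5*, *Ly6c2*, *Cd8b1*, *Dusp2*, *Klrd1* and *Ctla2a* rose in 7 of 7, with *Ly6c2* ranging from 0.43 in naive cells to 2.50 in the *Tcf7*hi cluster. For *Ccl5* and *Ly6c2* the share of naive cells with a UMI did not rise at equal depth, as given below. The histones fell in naive cells as well, in 15 of 15 tested, and in 14 of 14 in cluster 4, 16 of 16 in cluster 5, 18 of 18 in cluster 8 and 25 of 27 in cluster 9. In the cycling clusters, 28 of 40 fell and 1 rose in cluster 1, and 24 of 28 fell and 1 rose in cluster 2. The median was -0.99 in cluster 1 and -2.44 in cluster 2, against -3.08 in naive cells.

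Other genes depended on the cluster. *Gzmb*, not called over all cells, rose by 2.55 in the *Tcf7*hi cluster (adjusted p = 1.1e-07) from 282 ± 60.6 to 1682 ± 833 CPM (SD, n = 3 pools), and fell with log2 changes of -1.38 in naive cells, -0.54 in cluster 8 and -0.22 in cluster 9. *Cxcr6* rose by 2.35 in the *Tcf7*hi cluster (adjusted p = 1.2e-07), from 56.9 ± 12.7 to 299 ± 55.7 CPM, and was 43.1 against 47.3 CPM in naive cells. Cluster 4 held only 76 cells at 50 mg/kg, so its members at the 2 doses may not be alike. *Tcf7* fell in 4 of 7 clusters, by 1.07 in the *Tcf7*hi cluster from means of 329 to 159 CPM. S phase genes fell in 13 of 20 and rose in 0 in cluster 8, but fell in 4 and rose in 6 of 34 in cluster 1, the main cycling cluster. G2/M genes fell in 17 of 20 in cluster 8, 20 of 25 in cluster 9, 4 of 5 in cluster 6, 12 of 34 in cluster 2, 2 of 12 in cluster 4, 2 of 20 in cluster 5 and 6 of 34 in cluster 1, where 3 rose.

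**Figure D3:**
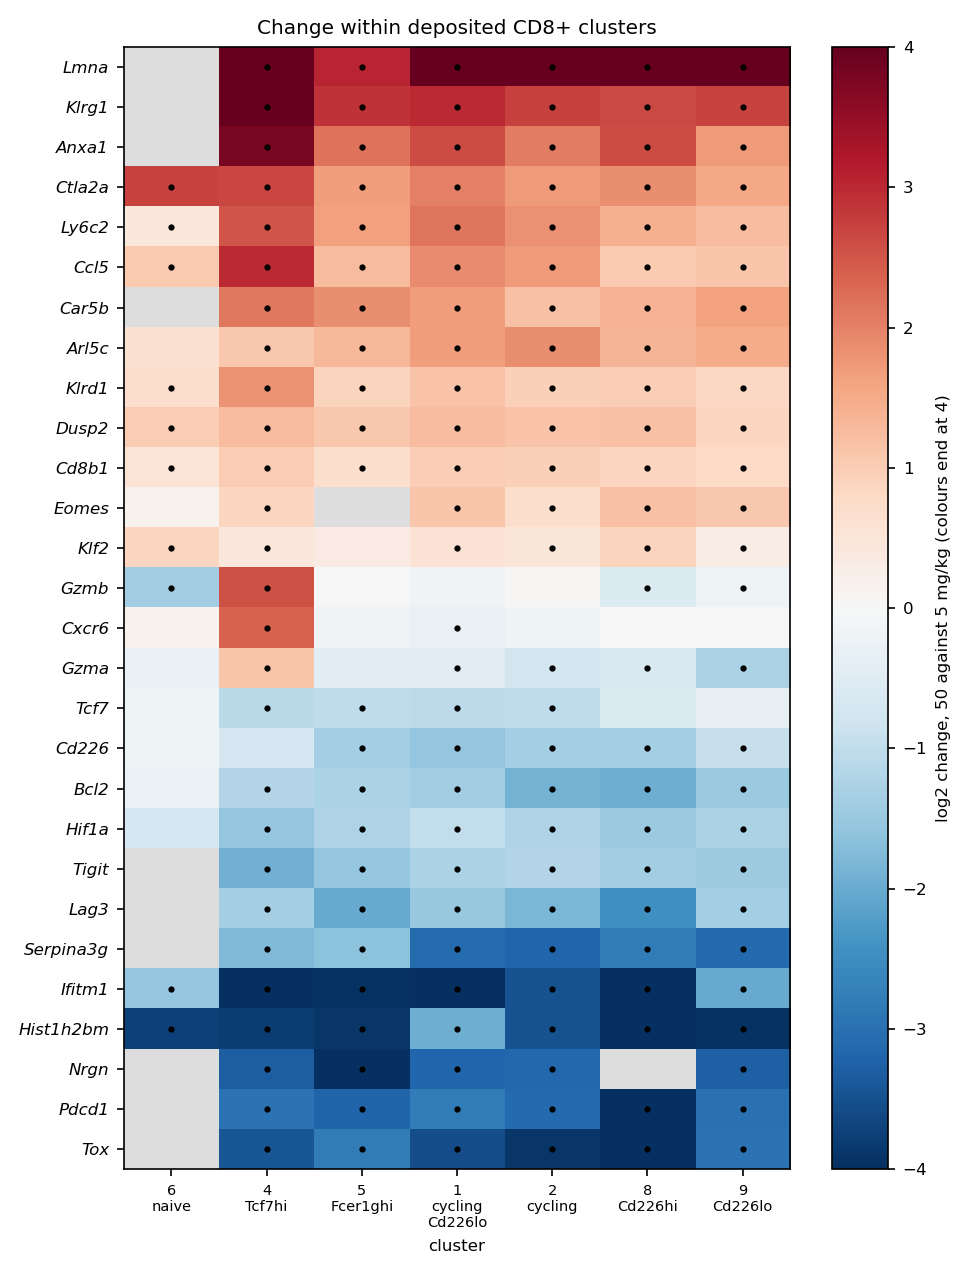
Log2 change at 50 against 5 mg/kg within 7 deposited CD8+ clusters (columns) for 28 genes (rows), red for higher and blue for lower, with colours ending at 4. A dot marks an adjusted p under 0.05 and grey a gene that could not be tested. The top and bottom rows keep 1 colour across columns, while *Gzmb* and *Cxcr6* are strongly red in the *Tcf7*hi column and pale or blue in the others.

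In single cells the same genes were compared at an equal depth, by thinning each cell to 2000 UMIs and leaving out the 83 and 8 cells below that at 5 and 50 mg/kg. *Tox* was seen in 15.4%, 15.7% and 17.3% of cells of the pools at 5 mg/kg and in 1.42%, 1.34% and 2.09% at 50 mg/kg, against 36.2% and 5.56% without thinning. *Pdcd1* was seen in 34.7%, 33.0% and 36.6% and then in 2.85%, 1.48% and 8.64% of cells (62.0% and 13.3% without thinning). With saline the thinned shares were 27.8% to 29.9% for *Tox* and 44.0% to 46.9% for *Pdcd1*, above those at 5 mg/kg. *Lmna* went from 0.425%, 0.797% and 0.451% to 13.1%, 14.8% and 9.91% of cells (1.77% and 33.3% without thinning). *Klrg1* went from 2.79%, 3.65% and 3.54% to 24.9%, 26.8% and 14.9% (8.43% and 44.4% without thinning). Naive cells serve as the background for genes that they should lack. In them *Lmna* was seen in 0% of cells of every pool at 5 mg/kg and in 2.22% to 9.03% at 50 mg/kg. *Klrg1* was seen in 0% to 1.87% at 5 mg/kg and in 1.06% to 2.14% at 50 mg/kg, and *Tox* in 2.23% to 9.74% and in 1.48% to 5.61%, so that *Tox* at 50 mg/kg over all cells was no higher than in naive cells. *Ly6c2* was seen in 44.5% to 52.0% of all cells and then in 81.9% to 87.2%, while naive cells held 56.5% to 78.8% and 58.1% to 69.7%. *Ccl5* was seen in 70.3% to 75.9% of all cells and then in 91.3% to 92.8%, against 84.7% to 86.0% with saline. In naive cells it was seen in 55.7% to 70.1% and then in 48.1% to 63.1%. Why so many naive cells held it was not tested. *Hist1h2bm* was seen in 15.9% to 20.1% of naive cells at 5 mg/kg and in 1.26% to 2.47% at 50 mg/kg, close to the values over all cells.

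The mixture of clusters shifted as well. The *Tcf7*hi cluster made up 11.6%, 9.70% and 9.87% of CD8+ cells at 5 mg/kg and 2.15%, 1.60% and 2.63% at 50 mg/kg. The cycling *Cd226*hi cluster, which made up 22.4%, 22.9% and 20.4% with saline, made up 3.06% ± 0.110 (SD, n = 3 pools) at 5 mg/kg and 0.567% ± 0.0480 at 50 mg/kg. *Cd226*hi effector cells were 20.7%, 18.8% and 21.3% with saline, 8.82%, 8.41% and 6.91% at 5 mg/kg and 19.2%, 20.1% and 9.22% at 50 mg/kg. Pool 3 at 50 mg/kg was close to the lower dose, and pools 1 and 2 lay in the range of the saline pools. *Cd226*lo effector cells rose from 18.5% ± 2.26 to 23.1% ± 0.563 in mean, and cluster 1 went from 30.5% ± 2.81 to 24.7% ± 2.96. With saline, *Cd226*lo effector cells made up 8.09%, 8.54% and 6.99%, and cluster 1 made up 16.6%, 17.0% and 17.9%. In these 5 clusters the pools of the doses did not overlap, which gives p = 0.1 in an exact two-sided permutation test, the smallest possible here, so no share reached 0.05. By edgeR on cell numbers, an alternative, the falls of cluster 3 (adjusted p = 3.7e-05) and cluster 4 (adjusted p = 6.9e-05) passed. The cycling clusters together made up 49.3% ± 3.98 and 45.1% ± 6.94 (exact permutation p = 0.5), and clusters 2, 5, 6 and 7 overlapped between the doses.

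Paired TCR sequences were read for 565 to 885 cells a pool at 5 mg/kg and 1001 to 1145 at 50 mg/kg. Simpson's index, here the chance in 10000 that 2 cells of a pool share an amino acid clonotype, was 7.72, 7.83 and 5.60 at 5 mg/kg and 4.45, 3.82 and 3.82 at 50 mg/kg, against 47.7, 36.9 and 14.9 with saline. The doses did not overlap (exact two-sided permutation test, p = 0.1), and with each pool thinned to 565 cells the means were 7.02 and 3.98. The share of cells in clonotypes of 2 or more cells did not fall, at 22.6% ± 0.378 and 24.4% ± 3.84 (SD, n = 3 pools). Unlike the index, that share was not thinned to equal numbers of cells. The largest clonotype of a pool held 6, 10 and 8 cells at 5 mg/kg and 7 cells in each pool at 50 mg/kg, where the saline pools reached 60, 64 and 21. As a share of the pool's cells with a clonotype it was 1.06%, 1.43% and 0.904% at 5 mg/kg. At 50 mg/kg it was 0.684%, 0.699% and 0.611%, without overlap. Of the clonotypes with 2 or more cells, 34 of 202 (16.8%) at 5 mg/kg and 32 of 340 (9.41%) at 50 mg/kg were found in more than 1 pool, which fell to 5.68% and 4.05% among cells with 1 dominant hashtag. Only 2 nucleotide clonotypes occurred at both doses, of 1816 and 2685. The beta chain CDR3 of the largest clonotype of each pool is printed to show which clones led them, with the first and last codons, a cysteine and a phenylalanine codon, in capitals.
5 mg/kg pool 1, 6 cells: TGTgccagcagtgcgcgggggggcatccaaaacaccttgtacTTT
5 mg/kg pool 2, 10 cells: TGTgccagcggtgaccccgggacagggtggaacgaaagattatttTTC
5 mg/kg pool 3, 8 cells: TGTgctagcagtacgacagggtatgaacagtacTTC
50 mg/kg pool 1, 7 cells: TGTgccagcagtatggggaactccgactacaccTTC
50 mg/kg pool 2, 7 cells: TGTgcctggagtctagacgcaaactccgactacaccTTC
50 mg/kg pool 3, 7 cells: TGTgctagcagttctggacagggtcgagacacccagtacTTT
Cells of these clones lay mostly in cluster 1, 5 of 6, 5 of 10 and 4 of 8 at 5 mg/kg and 4, 3 and 4 of 7 at 50 mg/kg. Of all cells in clonotypes of 3 or more, 246 at 5 mg/kg and 304 at 50 mg/kg, cluster 1 held 43.1% and 34.9%, cluster 9 held 13.8% and 21.7%, cluster 8 held 1.22% and 10.9% and the *Tcf7*hi cluster held 11.4% and 1.32%. These shares were not tested.

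**Figure D4:**
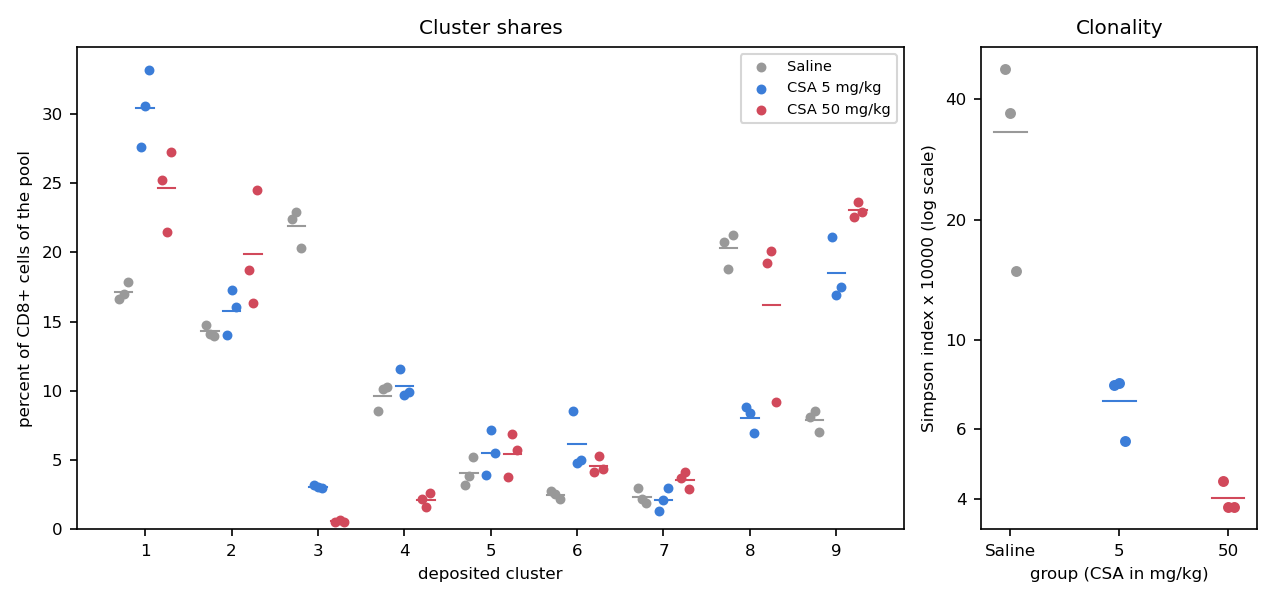
Left, the share of a pool's CD8+ cells in each deposited cluster, and right, Simpson's index times 10000 on a log axis, 1 point per pool with group means as bars. Clusters 3 and 4 are lower in every pool at 50 mg/kg than in every pool at 5 mg/kg, and the index steps from 5.60 to 7.83 down to 3.82 to 4.45.

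CD4+ T cells of the same pools and captures, 6033 cells without those marked TEa, were compared with the CD8+ cells for the same difference between doses. The interaction of lineage and dose was called for 1048 of 10714 genes (9.78%), 490 with the CD8+ change above the CD4+ change and 558 below. Several leading changes did not pass: for *Klrg1* the interaction was -0.08 (adjusted p = 0.87), for *Ccl5* -0.05 (0.83), for *Hist1h2bm* 0.03 (0.92), for *Pdcd1* 0.31 (0.31), for *Lmna* -0.62 (0.23) and for *Cd226* -0.20 (0.20). *Tox* fell by more in CD8+ cells, with an interaction of -0.73 (standard error 0.14, adjusted p = 1.3e-03). *Ly6c2* rose by less in CD8+ cells, from 603 ± 61.6 to 2337 ± 305 CPM, than in CD4+ cells, from 184 ± 19.8 to 1803 ± 277 CPM (SD, n = 3 pools) (interaction -1.33, standard error 0.06, adjusted p = 1.0e-12). *Gzmb* differed (interaction -0.83, standard error 0.05, adjusted p = 3.9e-11), at 2138 ± 269 and 2173 ± 269 CPM in CD8+ cells and 600.0 ± 42.4 and 1085 ± 144 CPM in CD4+ cells. *Gzma* had the opposite sign (interaction 1.79), at 1808 ± 176 and 1292 ± 105 CPM in CD8+ cells and 321 ± 39.3 and 67.3 ± 27.7 CPM in CD4+ cells. *Tigit* fell by less in CD8+ cells (1.16) and *Eomes* rose by less (-1.71). These CPM are scaled over both lineages.

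**Figure D5:**
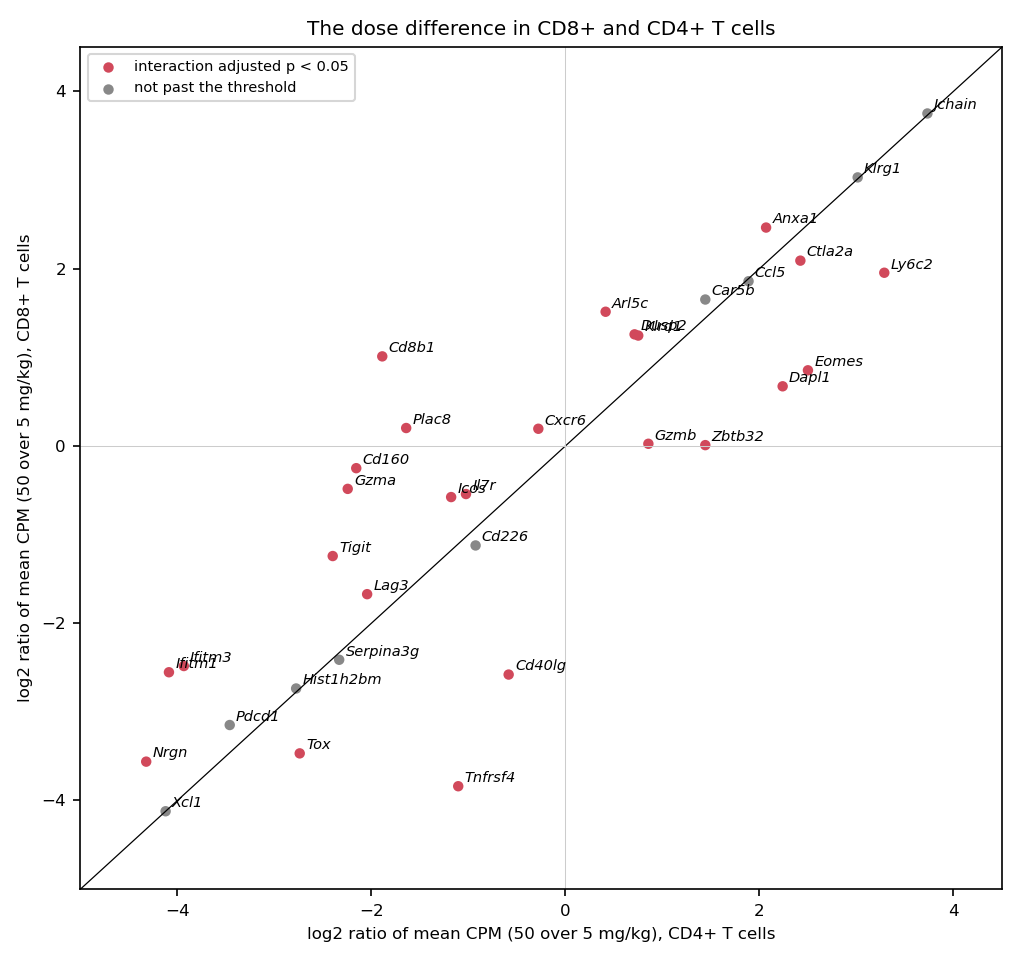
Log2 ratio of mean CPM at 50 over 5 mg/kg in CD4+ (horizontal) and CD8+ T cells (vertical) for 34 genes, 1 point per gene, with the line of equal change. Red points passed the interaction test. *Klrg1*, *Ccl5* and *Hist1h2bm* lie on the line, *Cd160* and *Gzma* above it and *Tnfrsf4* and *Zbtb32* below it.

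Among transcripts of other cell types, the summed levels of B lineage and red cell markers were higher at 50 mg/kg. The summed level of 14 B and plasma cell markers was 282 to 485 CPM at 5 mg/kg and 625 to 812 CPM at 50 mg/kg, and 3 of 9 tested rose and 5 fell. Their part in the results above was not tested. The higher sum was mainly *Jchain*, the joining chain of polymeric antibodies, at 0.663, 56.1 and 0.114 CPM and then 328, 263 and 190.0 CPM (log2 change 3.80, standard error 0.67, adjusted p = 5.4e-04). At 5 mg/kg, 346 of its 350 UMIs came from pool 2, 292 of them from 1 cell, and without that pool the log2 change was 9.68. Without pool 3 at 5 mg/kg it was 3.06, and with DESeq2 the call was lost. *Jchain* was seen in 7.25%, 7.38% and 6.97% of cells of the 3 pools at 50 mg/kg and in 5 of 2662 cells (0.188%) at 5 mg/kg. Its share was 15.5% in cluster 2, 7.31% in cluster 1, 6.63% in cluster 9 and 0.893% in cluster 8. *Ighm* rose by 1.13 (adjusted p = 1.2e-07), and the class II genes *H2-Aa*, *H2-Eb1* and *H2-Ab1* fell by 2.48, 2.60 and 2.10. Haemoglobin genes rose in 4 of 5 erythroid markers tested, with a sum of 8.12 to 16.8 CPM and then 29.4 to 55.1 CPM. Myeloid markers summed to 399 to 480 CPM and 393 to 508 CPM, with 1 of 11 higher and 2 lower. Markers of CD4+ and regulatory T cells summed to 15.7 to 17.9 CPM and 6.31 to 9.16 CPM (*Cd4* at 0), those of NK and gamma-delta T cells to 8.17 to 12.9 CPM and 2.60 to 4.64 CPM, and those of platelets to at most 4.46 CPM. The NK and gamma-delta sum at 5 mg/kg was mainly *Klrb1c*, the only member tested. The gamma-delta genes had few UMIs and moved both ways. *Trdc* had 1, 2 and 6 UMIs and then 7, 24 and 22, and *Tcrg-C2* had 4, 8 and 8 and then 4, 6 and 1. Of 14 dissociation-associated genes, 4 rose and 4 fell (background 19% and 19.9% of genes), and their sums overlapped.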

How the data were processed

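T cells were profiled by droplet 5′ single-cell RNA sequencing with antibody tags, hashtags and TCR sequencing. The submitters' processing notes name Cell Ranger, Seurat 3.0.0 and mm10, and the gene annotation is not given in the sources used here. The authors deposited UMI counts per gene and cell (18029 genes, 21204 cells), counts of genes and of antibody tags per cell, the mitochondrial content as a fraction of UMIs, and, in other columns, the pool, cluster, TEa mark and clonotype of each cell. Rows naming no gene numbered 0, and count sums equalled the deposited totals in 21204 cells.

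Counts were summed over the CD8+ cells of each pool, genes were filtered by edgeR's filterByExpr, and the doses were compared with edgeR's quasi-likelihood test on TMM-scaled counts with Benjamini-Hochberg adjustment at 0.05. The same fit was run within clusters with at least 10 cells in every pool, and with CD4+ cells (280 TEa cells left out) for the interaction of lineage and dose. Shares, depth and clonality were compared by exact two-sided permutation tests, whose smallest p is 0.1. Genes named were the 8 largest rises and 8 largest falls among genes called, not overlapping between doses and with a mean of at least 50 CPM (TCR and immunoglobulin segments left out), genes the study discusses, defining members and the largest changes of each list, and the 5 largest interactions each way. Some genes that this rule names are not reported here. The comparison and the lists were chosen with earlier results of these data known. Other choices tried were DESeq2, library size scaling, no filter, all 9 pools in the fit, a pool number block, cells outside the cycling clusters, cells of 4000 to 8000 UMIs and each pool left out. Cells with 1 dominant hashtag (no second hashtag at 0.5 of the first or above) were added after seeing the data, as the treatment of doublets between pools.

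Of 200 genes changed by 0.5 on the log2 scale in simulated counts, 62.5% were recovered with 11 false calls among 10428 genes. At a change of 1 it was 87.5%, with 16 false calls among 10406. The simulated pools were independent, with the dispersions of the main fit and as many rises as falls. In the data 4093 genes were called and the pools of a dose shared a capture, so these rates need not hold there. Motifs were searched in RefSeq promoters of GRCm38.p6, and gene coordinates are those of GENCODE M21 (mm10). Intervals and floors cover counting error only. Software was R 4.3.3, edgeR 4.0.16, limma 3.58.1, DESeq2 1.42.0, Python 3.11.15, numpy 2.4.6, pandas 2.3.3, scipy 1.17.1 and matplotlib 3.10.9.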

Additional observations from a re-analysis of the deposited data

Results flagged for a closer look

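For 10 genes the difference between the doses was itself unlike in CD8+ and CD4+ T cells of the same 6 pools, by edgeR's test of the interaction over 10714 genes. Values are the log2 change in CD8+ cells minus that in CD4+ cells. *Cd8b1*, the co-receptor chain itself, gave 2.91, with means of 1429 and 2879 CPM in CD8+ cells and 87.8 and 23.4 CPM in CD4+ cells at 5 and 50 mg/kg. It marks the CD8+ lineage, and *Cd8a* was at 0 in the CD4+ cells of all 6 pools, so the value is a description and not a test of a lineage's response. *Tnfrsf4*, the costimulatory receptor OX40, gave -3.0 (standard error 0.24, adjusted p = 2.2e-08), with means of 33.2 and 1.85 CPM in CD8+ cells and 276 and 128 CPM in CD4+ cells at 5 and 50 mg/kg. *Cd40lg*, the helper ligand, gave -2.57, with means of 7.03 and 0.760 CPM in CD8+ cells and 153 and 102 CPM in CD4+ cells at 5 and 50 mg/kg. It marks CD4+ cells and was scarce in CD8+ cells, so this value too is a description.

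*Cd160*, an inhibitory receptor, gave 1.93 (standard error 0.11, adjusted p = 3.2e-11), with means of 168 and 141 CPM in CD8+ cells and 63.6 and 13.9 CPM in CD4+ cells at 5 and 50 mg/kg. *Plac8* gave 1.87 (standard error 0.10, adjusted p = 2.9e-11), with means of 264 and 304 CPM in CD8+ cells and 196 and 62.6 CPM in CD4+ cells at 5 and 50 mg/kg. *Gzma*, a granzyme, gave 1.79 (standard error 0.15, adjusted p = 4.1e-08), and *Ifitm1*, an antiviral membrane protein, 1.53 (standard error 0.16, adjusted p = 7.8e-07), with means of 605 and 103 CPM in CD8+ cells and 657 and 38.1 CPM in CD4+ cells at 5 and 50 mg/kg. *Ly6c2* gave -1.33 (standard error 0.06, adjusted p = 1.0e-12) in the other direction. *Zbtb32*, a repressor of T cell activation, gave -1.46 (standard error 0.10, adjusted p = 2.7e-09), with means of 102 and 102 CPM in CD8+ cells and 32.2 and 88.3 CPM in CD4+ cells at 5 and 50 mg/kg. *Dapl1* gave -1.60 (standard error 0.21, adjusted p = 1.2e-05), with means of 35.8 and 57.3 CPM in CD8+ cells and 21.1 and 102 CPM in CD4+ cells at 5 and 50 mg/kg.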

How the results depend on the processing

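The fit as reported called 4093 genes. DESeq2 called 2914 (2910 of them shared), no filter on low counts 4478 (3909 shared), a fit with all 9 pools 4443 (4053 shared) and cells of 4000 to 8000 UMIs 2838 (2536 shared). Outside the cycling clusters 2546 were called (1206 higher, 1340 lower), and 2290 of the 2291 shared with the main calls had the same direction. Fits that left out 1 pool called 3087 to 4062. Library size scaling gave 1189 rises, 29 S phase genes lower and 14 OXPHOS genes higher. With no filter 9 killer lectin-like receptors were higher. Outside the cycling clusters 6 glycolysis genes were lower, and *Havcr2* (0.12) and *Hist3h2ba* (-0.032) turned. Cells of 4000 to 8000 UMIs gave 5 cytokines, 31 S phase and 7 glycolysis genes lower, and *Hist3h2ba* at -0.15. Cells with 1 dominant hashtag, chosen after seeing the data, gave 13 G2/M genes lower. The cause of these moves was not tested.

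Within clusters 1, 2, 4, 5, 6, 8 and 9 DESeq2 called 1029, 830, 248, 109, 66, 659 and 617 genes. With 1 pool left out, calls were 933 to 1417 in cluster 2 (933 without pool 3 at 5 mg/kg), 175 to 254 in cluster 5 (175 without pool 2 at 50 mg/kg, 187 without pool 3 at 5 mg/kg) and 64 to 173 in cluster 6 (64 without pool 3 and 80 without pool 1 at 5 mg/kg). The interaction with lineage was called for 639 to 959 genes (639 without pool 2 at 5 mg/kg). G2/M genes lower numbered 13 to 24 (13 without pool 3 at 5 mg/kg or pool 2 at 50 mg/kg), and OXPHOS genes higher 18 to 28 (18 without pool 3 at 5 mg/kg).

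By edgeR on cell numbers the log2 changes of clusters 3 and 4 were -2.40 and -2.27. The share of cluster 5, -0.05 percentage points, became 0.0662 in cells of at least 2000 UMIs, 0.185 in cells with a clonotype and 0.227 with 1 dominant hashtag, and ranged from -0.853 to 0.79 with 1 pool left out.

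With the pool number as a replicate block, 3862 genes were called. Pools with the same number shared only that number, with correlations of their deviations of -0.088, 0.05 and 0.097. The 3 pools a dose limit the shares and clonality, where no p under 0.1 is possible.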
